A study of Mus musculus with 19 samples.

Results

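Ribosome-bound mRNA of spinal cord cholinergic neurons was compared between ZT16 and ZT4, a pair of time points 12 h apart. ZT, Zeitgeber time, counts hours from lights on in a cycle of 12 h light and 12 h dark, so ZT4 lies in the light, when mice rest, and ZT16 lies in the dark, when they are active. The comparison rests on 6 of the 19 libraries of the series, namely the 3 biological replicates of each time point. All 6 came from male mice, wild type (WT) and 10 weeks old, of the genotype ChAT-Cre;RiboTag fx/+, and per the methods 1 spinal cord gave 1 homogenate. RiboTag adds a hemagglutinin (HA) tag to the ribosomal protein encoded by Rpl22 in cells that express Cre, and precipitating HA recovers the mRNA on the tagged ribosomes. Both groups carried the same Cre and RiboTag alleles and differed in collection time. ChAT-Cre marks every cholinergic cell of the cord, so motor neurons, preganglionic neurons and cholinergic interneurons enter 1 pool.

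The circadian clock of a mammalian cell is a loop in which CLOCK and BMAL1 (the product of Arntl) bind E-box sequences and drive the Per and Cry genes, whose proteins then block CLOCK and BMAL1. A second loop sets Arntl transcription through REV-ERB repressors (Nr1d1, Nr1d2) and ROR activators, and PAR bZIP factors such as DBP pass timing on to output genes through D-box sequences. Neurons also change with feeding, activity and light, so a day-night pair of time points reads clock output and behavioural state together.

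Libraries held 6651455 to 22406850 counts at ZT4 and 11805185 to 18488927 counts at ZT16. Each library came from 1 animal. The edgeR p-values rest on the spread between the 3 animals of a time point, pooled over the 6 time points fitted. Levels are given as CPM, counts relative to the TMM-scaled library size. Summed over 7 markers of cholinergic neurons (Chat, Slc18a3, Slc5a7, Ache, Isl1, Mnx1 and Prph), the level was 4209 to 4918 CPM at ZT4 and 4623 to 5027 CPM at ZT16. It was 557 CPM in the pooled input (whole spinal cord RNA), so these mRNAs were enriched at both time points. The sum is weighted by Prph, at 2334 to 3556 CPM, and 5 of the 7 markers had higher levels at ZT16 (edgeR, unadjusted p under 0.05). The first principal component of log2 CPM (52.8% of the variance over 9214 genes) placed ZT4 at 4.32, 19.9 and 15.1 and ZT16 at -20.1, -27.9 and 2.81 for replicates 1, 2 and 3. ZT16 replicate 3 thus lay on the side of the ZT4 libraries. It is therefore left out as an alternative beside the results it moves. That choice was made on the values tested here, so calls gained without this library are no separate evidence.

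Of 15572 genes tested, 10 were called between ZT16 and ZT4 at an adjusted p under 0.05 (edgeR quasi-likelihood test, Benjamini-Hochberg), 0.0642% of the genes. Of these, 8 were higher at ZT16 (0.0514%) and 2 were lower (0.0128%). In all 10 the 3 libraries of ZT16 lay on 1 side of the 3 of ZT4, as they did in 3277 genes (21%), 1746 higher (11.2%) and 1531 lower (9.83%). An unadjusted p under 0.05 was reached by 3158 genes (20.3%), of which 1632 had higher levels at ZT16 (10.5%) and 1526 lower (9.8%). At an adjusted p under 0.1 there were 407 genes. The median log2 difference of all genes was 0.0021.

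The number of calls rested on single libraries. No gene was called when ZT4 replicate 2, ZT4 replicate 3, ZT16 replicate 1 or ZT16 replicate 2 was left out, although 1680 to 2702 genes then kept an unadjusted p under 0.05. Without ZT16 replicate 3, 1466 genes were called (9.11% of 16088), 708 higher (4.4%) and 758 lower (4.71%), and all 10 genes were among them. DESeq2, which the study used for differential expression, called 808 genes and gave 12043 genes no adjusted p. The study read this time course for rhythm, with JTK_Cycle. With a weight for each library, limma voom called 2561. Each of the 10 genes kept its direction under all 33 alternatives run for it, which follows in part from their choice as the called genes. The call itself was kept in 17 (Lcn2 and Narf) to 27 (Srsf5) of the 33.

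**Figure D1:**
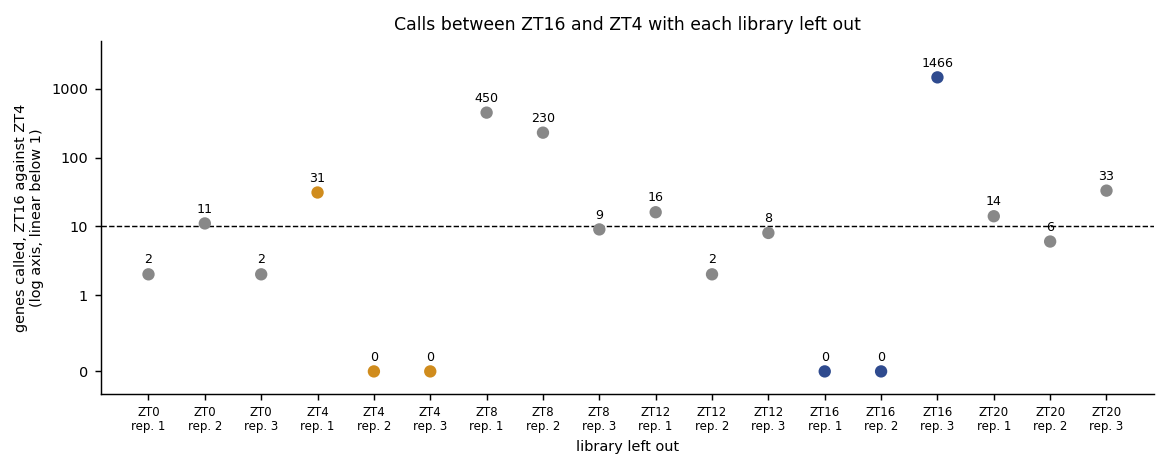
Genes called between ZT16 and ZT4 (vertical axis, log scale, linear below 1) when the library on the horizontal axis is left out of the fit. The dashed line marks the 10 genes called with all 18 libraries, orange marks ZT4 and blue ZT16. The points run from 0 for 4 of the 6 compared libraries to 1466 for ZT16 replicate 3.

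The lowest p belonged to Srsf5 (chr12:80945495-80950507, GRCm38.p6), which encodes an SR protein that binds exonic enhancers during pre-mRNA splicing. It was at 139, 153 and 148 CPM at ZT4 and 61.4, 65.3 and 82.4 CPM at ZT16, so each ZT16 library held less than any ZT4 library. Srsf5 fell at ZT16 (log2 difference -1.07 ± 0.15 (SE), adjusted p = 0.011). A second gene of RNA processing moved the other way. Srrm4 (chr5:116439268-116592562), a neuronal SR-related protein that promotes inclusion of microexons, was at 17.9, 14.9 and 12.1 CPM at ZT4 and 32.2, 31.6 and 26.7 CPM at ZT16. It rose at ZT16 (log2 difference 0.99 ± 0.15 (SE), adjusted p = 0.0218). The highest mean of Srsf5 over the 6 time points was at ZT4 and its lowest at ZT16, and for Srrm4 the reverse held.

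Prkra (chr2:76609215-76648220) encodes PACT, a double-stranded RNA-binding protein that activates the kinase PKR. Its level was 33.7, 35.9 and 32.0 CPM at ZT4 and 22.4, 21.7 and 20.8 CPM at ZT16, with little spread inside either group. Prkra fell (log2 difference -0.65 ± 0.11 (SE), adjusted p = 0.0341) and was, with Srsf5, the only gene called lower. Ndufb2 (chr6:39592565-39599843), an accessory subunit of respiratory complex I, was at 44.8, 32.4 and 41.5 CPM at ZT4 and 76.8, 71.0 and 69.0 CPM at ZT16. It rose (log2 difference 0.88 ± 0.15 (SE), adjusted p = 0.0341) against the direction of most other complex I genes, which are described with the gene lists.

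Por (chr5:135670040-135735326) encodes cytochrome P450 oxidoreductase, which passes electrons from NADPH to P450 enzymes of the endoplasmic reticulum. It was at 20.7, 19.0 and 16.2 CPM at ZT4 and 44.8, 40.8 and 29.1 CPM at ZT16 and rose (log2 difference 1.02 ± 0.18 (SE), adjusted p = 0.0341). Banp (chr8:121947972-122029260), a nuclear DNA-binding protein with a BEN domain, was at 13.9, 12.1 and 9.30 CPM at ZT4 and 23.7, 30.6 and 21.7 CPM at ZT16 and rose (log2 difference 1.09 ± 0.20 (SE), adjusted p = 0.0341). Narf (chr11:121237236-121255856), a nuclear protein that binds prelamin A, was at 13.1, 7.85 and 8.99 CPM at ZT4 and 27.2, 29.7 and 15.5 CPM at ZT16 and rose (log2 difference 1.27 ± 0.24 (SE), adjusted p = 0.0476). In Por and Narf the lowest ZT16 library was replicate 3, and it lay nearer to the ZT4 libraries than the other two did.

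Kcns3 (chr12:11090202-11151168) encodes a silent potassium channel subunit that forms channels only together with Kv2 subunits. It was at 5.19, 2.60 and 2.84 CPM at ZT4 and 9.05, 12.4 and 10.1 CPM at ZT16 and rose (log2 difference 1.55 ± 0.28 (SE), adjusted p = 0.0341). Agt (chr8:124556587-124569706), the precursor of angiotensin, had the largest fold among the called genes, from 2.76, 1.28 and 3.78 CPM at ZT4 to 8.46, 9.69 and 10.1 CPM at ZT16 (log2 difference 1.95 ± 0.35 (SE), adjusted p = 0.0341). Lcn2 (chr2:32384637-32387739), a secreted lipocalin that binds iron-loaded siderophores, was at 4.94, 3.92 and 5.36 CPM at ZT4 and 12.0, 13.2 and 14.2 CPM at ZT16 and rose (log2 difference 1.50 ± 0.27 (SE), adjusted p = 0.0341). Neither group overlapped the other in any of these genes.

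The pooled input set Agt apart from the other called genes. Agt held 205 CPM there (95% Poisson interval 198 to 213, counting error only) against 1.28 to 10.8 CPM over the 18 immunoprecipitates, a mean of 0.0296-fold of the input. In the central nervous system Agt is made mainly by astrocytes. The summed level of 6 astrocyte markers was 142 to 170 CPM at ZT4 and 162 to 203 CPM at ZT16, with no marker at 0 in all 6 libraries, and its part in the change of Agt was not tested. Kcns3 (0.302-fold), Narf (0.420-fold) and Por (0.452-fold) also lay below the input, the other 6 genes between 0.953-fold (Banp) and 2.12-fold (Lcn2). There was a single input library. In such bulk samples, less of an mRNA per cell and fewer cells that carry it cannot be told apart.

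**Figure D2:**
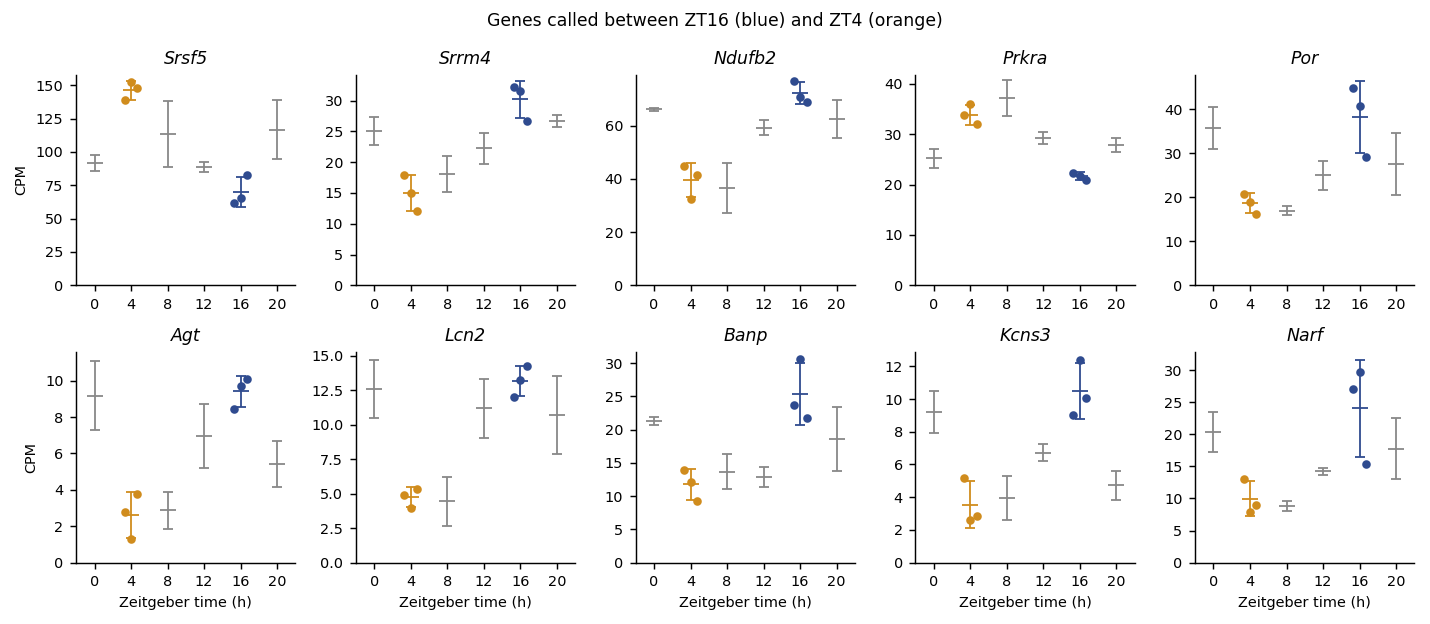
Level (CPM, vertical axis) of the 10 genes called between ZT16 and ZT4 over Zeitgeber time (horizontal axis). Dots are the libraries of ZT4 (orange) and ZT16 (blue), and horizontal marks with bars are the mean ± SD of 3 libraries at each time point. All 8 genes that rose have their highest mean at ZT16, and both genes that fell have their lowest mean there. The genes were chosen by their ZT16 minus ZT4 difference, so this follows in part from the choice.

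Over all 6 time points, the 8 genes that rose had their highest mean at ZT16. They were called for the ZT16 minus ZT4 difference, so this follows in part from how they were chosen. Their lowest mean was at ZT4 in 4 of them (Srrm4, Agt, Banp and Kcns3) and at ZT8 in the other 4. Of the genes that fell, both were lowest at ZT16, and Prkra was highest at ZT8. ZT0 means lay near those of ZT16 for Lcn2 (12.6 ± 2.11 against 13.2 ± 1.10 CPM, SD, n = 3) and Agt (9.19 ± 1.92 against 9.41 ± 0.846 CPM).

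Promoters were read for the letters through which the clock is known to act. Windows of 250 bases before an annotated start (RefSeq, GRCm38.p6) were found for 9 of the 10 called genes, and for 18 clock genes. The E-box CACGTG was in 0 of the 9, in 5 of the 18 clock genes and in 9.63% of 11803 tested genes with a window. The D-box form TTATGTAA was in 0 of the 9, in 1 of the 18 and in 0.593% of the tested genes, and the ROR and REV-ERB core AGGTCA in 1 of the 9, in 4 of the 18 and in 13%. Both strands were searched, and a gene with several windows counted if any of them held the letters. The windows of Srsf5, which had the lowest p, of Ndufb2, the called gene with a match, and of Per1 and Per3, clock genes with an E-box and a D-box, are printed 5′ to 3′ with matches in capitals. They lie at chr12:80945249-80945498, plus strand (Srsf5), chr6:39592315-39592564, plus strand (Ndufb2), chr11:69098699-69098948, plus strand (Per1) and chr4:151044666-151044915, minus strand (Per3).
Srsf5: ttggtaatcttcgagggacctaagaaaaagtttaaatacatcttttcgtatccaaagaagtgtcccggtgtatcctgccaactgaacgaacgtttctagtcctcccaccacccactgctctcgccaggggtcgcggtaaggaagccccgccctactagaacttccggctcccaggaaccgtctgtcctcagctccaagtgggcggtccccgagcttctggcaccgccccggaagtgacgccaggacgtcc
Ndufb2: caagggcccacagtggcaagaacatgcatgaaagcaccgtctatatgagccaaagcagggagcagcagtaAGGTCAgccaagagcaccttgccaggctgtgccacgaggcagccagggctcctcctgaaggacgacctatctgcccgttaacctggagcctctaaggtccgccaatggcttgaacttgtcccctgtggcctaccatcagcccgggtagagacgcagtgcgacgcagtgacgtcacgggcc
Per1: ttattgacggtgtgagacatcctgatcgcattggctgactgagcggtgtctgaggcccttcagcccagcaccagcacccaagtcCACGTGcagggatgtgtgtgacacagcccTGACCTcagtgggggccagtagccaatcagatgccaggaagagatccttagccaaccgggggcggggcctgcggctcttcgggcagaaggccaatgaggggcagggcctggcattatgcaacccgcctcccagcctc
Per3: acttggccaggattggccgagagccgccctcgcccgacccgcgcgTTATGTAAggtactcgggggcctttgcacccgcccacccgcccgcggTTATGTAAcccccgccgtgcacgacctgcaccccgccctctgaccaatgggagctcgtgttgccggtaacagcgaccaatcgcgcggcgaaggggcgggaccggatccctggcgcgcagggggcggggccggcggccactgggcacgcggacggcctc
In the window printed, Per1 carries the E-box and the core on its reverse strand (TGACCT), and Per3 carries the D-box at 2 places. A second window of Per1 (chr11:69099902-69100151, plus strand) is not printed and held none of the 3 motifs. These matches describe letters in a window and show no binding.

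Below the threshold, the genes with the lowest p came close to it. Snrnp200, the helicase that unwinds U4 from U6 in the spliceosome, was at 25.0, 25.4 and 21.8 CPM at ZT4 and 43.6, 59.6 and 34.5 CPM at ZT16 (adjusted p = 0.0519). Ctnnbl1, a component of the Prp19-related complex of the spliceosome, was at 24.2, 17.6 and 20.3 CPM at ZT4 and 40.4, 35.0 and 31.2 CPM at ZT16 (adjusted p = 0.0519). In both, all ZT16 libraries lay above all ZT4 libraries (11.2% of all genes).

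Among genes with lower levels at ZT16, Tmed2 (a cargo receptor between endoplasmic reticulum and Golgi) had a log2 difference of -0.64, Mrpl36 (mitochondrial ribosome) -0.75, Tipin (a partner of TIMELESS at the replication fork) -1.19, H3f3b (histone H3.3) -0.71, Tmem128 -0.72, the deubiquitinase gene Zranb1 -0.58, the growth factor gene Pdgfa -0.65 and Lzts1 -0.66. Their adjusted p-values were 0.0519 or 0.0543, and none overlapped between groups (9.83% of all genes were lower without overlap). Without ZT16 replicate 3 each of these 10 genes was called (adjusted p from 0.00634 to 0.0187). That fit called 9.11% of all genes, and the 10 were chosen for their low p, so these calls are no separate evidence. With ZT16 replicate 1 or ZT16 replicate 2 left out instead, no gene was called.

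No clock gene was called at ZT16 against ZT4. The lowest adjusted p was that of Per2, a repressor of CLOCK and BMAL1, at 1.35, 2.25 and 2.05 CPM at ZT4 and 3.67, 4.69 and 5.91 CPM at ZT16 (log2 difference 1.34 ± 0.32 (SE), adjusted p = 0.0751). Per1 was at 18.1, 16.5 and 22.5 CPM at ZT4 and 28.6, 31.1 and 27.2 CPM at ZT16 (log2 difference 0.62 ± 0.16 (SE), adjusted p = 0.0881). All ZT16 libraries exceeded all ZT4 libraries in both genes. Per3 was at 8.66, 4.19 and 2.52 CPM at ZT4 and 10.9, 7.81 and 10.7 CPM at ZT16 (log2 difference 0.88 ± 0.30 (SE), adjusted p = 0.126), and here the groups overlapped through ZT4 replicate 1.

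Clock, the activator, was at 31.6, 28.2 and 24.6 CPM at ZT4 and 19.5, 19.2 and 23.9 CPM at ZT16 (log2 difference -0.44 ± 0.15 (SE), adjusted p = 0.118). Its partner Arntl was at 7.12, 5.95 and 6.46 CPM at ZT4 and 7.86, 7.54 and 7.27 CPM at ZT16, a log2 difference of 0.22 ± 0.20 (SE). Npas2 and Arntl2, which can stand in for these activators, were at most 1.59 and 4.10 CPM in the 6 libraries. The summed level of the 4 activators was 38.6 ± 3.57 CPM at ZT4 and 33.2 ± 2.53 CPM at ZT16 (SD, n = 3).

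The remaining repressors differed by smaller amounts. Cry2 had a log2 difference of 0.21 ± 0.09 (SE), Cry1 0.16 ± 0.34, Bhlhe40 -0.04 ± 0.11, Bhlhe41 -0.37 ± 0.14 and Ciart -0.23 ± 0.18. Of 8 repressors tested, 4 had an unadjusted p under 0.05 with higher levels at ZT16 (10.5% of all genes did) and 1, Bhlhe41, with lower levels (9.8% of all genes). Per2 (adjusted p = 0.0448) and Per1 (0.0293) were called higher and Clock (0.0411) lower once ZT16 replicate 3 was left out (4.4% and 4.71% of all genes). No gene was called without ZT16 replicate 1 or without ZT16 replicate 2.

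In the second loop, Nr1d1 was at 37.9, 28.1 and 41.3 CPM at ZT4 and 35.3, 46.7 and 30.8 CPM at ZT16 and Nr1d2 at 72.5, 69.4 and 48.7 CPM at ZT4 and 61.6, 54.8 and 67.5 CPM at ZT16. Both groups overlapped in both genes. Among the ROR genes, Rora differed by -0.19 ± 0.14 (SE) on the log2 scale and Rorb by 0.86 ± 0.35, and Nfil3, the repressor that opposes DBP at D-boxes, by 0.40 ± 0.30. The PAR bZIP genes differed by 0.26 ± 0.18 (Dbp), 0.07 ± 0.11 (Tef) and -0.27 ± 0.20 (Hlf), with overlapping groups in all of them. In ZT12 against ZT0, which shares no library with this pair, Dbp differed by 1.12 and Tef by 0.48. Of 8 genes for clock protein turnover (kinases and ubiquitin ligases), 3 had an unadjusted p under 0.05, all with lower levels (9.8% of all genes). Csnk1d (casein kinase 1 delta) and Fbxw11 (a subunit of a PER ubiquitin ligase) were among them.

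**Figure D3:**
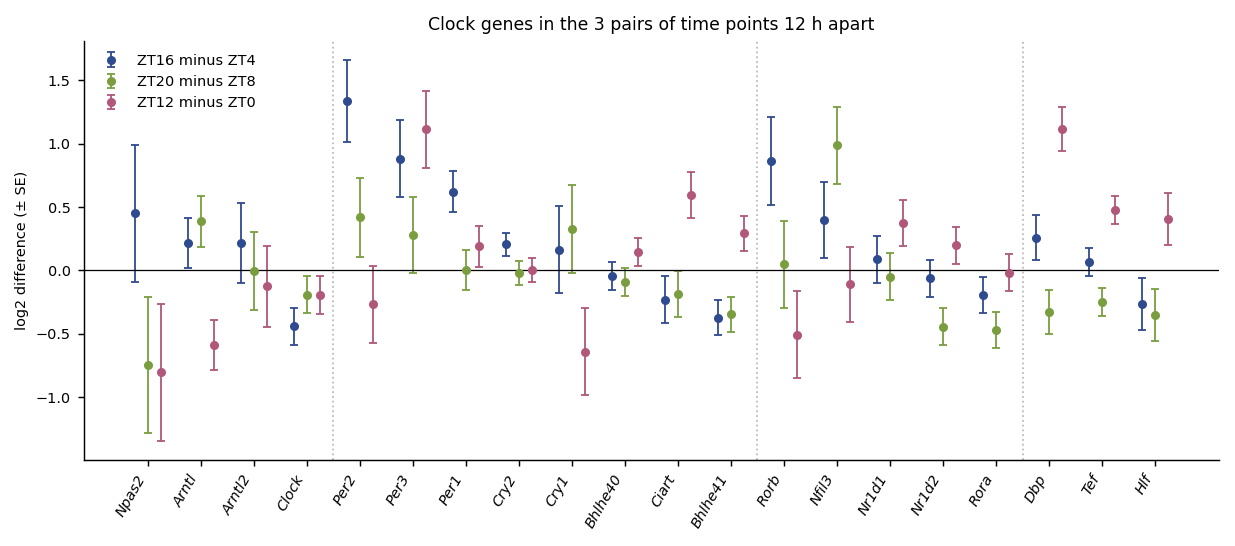
Log2 difference ± SE (vertical axis) of the clock genes named in the text (horizontal axis) between ZT16 and ZT4 (blue), ZT20 and ZT8 (green) and ZT12 and ZT0 (pink). Dotted lines separate activators, repressors, the REV-ERB and ROR loop with Nfil3, and PAR bZIP outputs. Per2, Per3 and Rorb stand highest in the blue series, at 1.34, 0.88 and 0.86, and Dbp and Per3 in the pink series.

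Gene lists were then read by their counts and medians beside all genes. Counts without ZT16 replicate 3 describe that fit alone, since no gene was called without ZT16 replicate 1 or without ZT16 replicate 2. Nuclear-encoded oxidative phosphorylation had the lowest median among the 36 pathway lists, a log2 difference of -0.40 over 81 genes tested. Of these, 64 were lower and 17 higher by sign (49.8% and 50.2% of all genes), 45 had an unadjusted p under 0.05 with lower levels at ZT16 (9.8% of all genes) and 7 with higher levels (10.5% of all genes). The single member called was Ndufb2, which rose. Summed over the list, the 3 libraries held 25192, 27704 and 29062 CPM at ZT4 and 21461, 19755 and 26982 CPM at ZT16. ZT16 replicates 1 and 2 lay below all ZT4 libraries and replicate 3 lay within their range.

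By complex, the median was -0.41 for 37 Nduf genes (complex I), -0.33 for 9 genes of complex III, -0.51 for 13 Cox genes (complex IV) and -0.39 for 17 Atp5 genes (ATP synthase). Complex II, whose 4 Sdh genes also serve the citric acid cycle, had a median of -0.08. Cox5a was at 782, 990.0 and 915 CPM at ZT4 and 492, 398 and 736 CPM at ZT16 (adjusted p = 0.108), and Ndufb10 at 313, 376 and 347 CPM at ZT4 and 193, 171 and 300.2 CPM at ZT16 (adjusted p = 0.108). Some members ran against the list. Atp5b, the catalytic beta subunit of ATP synthase, was at 1323, 921 and 995 CPM at ZT4 and 1706, 1838 and 1363 CPM at ZT16 (adjusted p = 0.111), Cyc1, cytochrome c1 of complex III, was at 169, 136 and 162 CPM at ZT4 and 252, 249 and 202 CPM at ZT16 (adjusted p = 0.118), and Ndufa10 was at 191, 152 and 166 CPM at ZT4 and 269, 275 and 213 CPM at ZT16 (adjusted p = 0.0946). In these 3 genes every ZT16 library was above every ZT4 library. Without ZT16 replicate 3, 46 members of the list were called lower (4.71% of all genes were) and 4 higher (4.4%), and the median was -0.62.

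Respiratory genes encoded by mitochondrial DNA stood on the other side. Of the 13 tested, 11 were higher by sign (50.2% of all genes) and 5 had an unadjusted p under 0.05, all with higher levels (10.5% of all genes). ND4 (complex I) was at 222, 206 and 143 CPM at ZT4 and 285, 411 and 392 CPM at ZT16 (adjusted p = 0.0918). CYTB (complex III) was at 211, 154 and 139.5 CPM at ZT4 and 249, 332 and 354 CPM at ZT16 (adjusted p = 0.106). The groups did not overlap in either, yet summed over the 13 genes they did, at 2293 to 3180 CPM at ZT4 and 2957 to 4671 CPM at ZT16, with ZT16 replicate 3 highest. The median log2 difference was 0.60, and no member was called. These transcripts are made inside mitochondria, whose ribosomes carry no HA tag.

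Cytosolic ribosomal protein genes had a median of -0.32 over 87 genes, with 74 lower by sign (49.8% of all genes). At an unadjusted p under 0.05, 22 had lower and 2 higher levels (9.8% and 10.5% of all genes). None was called. The groups overlapped in nearly all of them, since 1 gene was lower and 3 were higher without overlap (9.83% and 11.2% of all genes). The summed level was 18015 to 21181 CPM at ZT4 and 14885, 13481 and 21458 CPM at ZT16, so ZT16 replicate 3 held more than any ZT4 library. Without that library 47 members were called lower (4.71% of all genes) and 0 higher (4.4% of all genes), and the median was -0.55. The small subunit (36 Rps genes, median -0.35) and the large subunit (50 Rpl genes, -0.19) had the same sign. Rpl22, the gene that carries the tag, was at 96.8, 105 and 96.6 CPM at ZT4 and 77.1, 61.7 and 83.3 CPM at ZT16 (adjusted p = 0.13).

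Mitochondrial ribosomal protein genes had a median of -0.26 over 78 genes. At an unadjusted p under 0.05, 27 had lower and 5 higher levels (9.8% and 10.5% of all genes). Mrpl15 was at 85.1, 86.8 and 81.3 CPM at ZT4 and 54.9, 57.9 and 64.2 CPM at ZT16 (adjusted p = 0.0716), and Mrps5 at 9.94, 6.26 and 12.8 CPM at ZT4 and 15.2, 15.7 and 14.8 CPM at ZT16 (adjusted p = 0.115). These 2 genes differed in opposite directions without overlap. Without ZT16 replicate 3, 29 members were called lower and 1 higher (4.71% and 4.4% of all genes), and the median was -0.38. The vacuolar ATPase, the proton pump of lysosomes and synaptic vesicles, had a median of -0.22 over 19 genes. Of these, 8 were lower and 1 higher at an unadjusted p under 0.05 (9.8% and 10.5% of all genes). All 9 genes of its V1 sector tested were lower by sign. The proteasome had a median of -0.15 over 46 genes, 12 with lower and 7 with higher levels at an unadjusted p under 0.05 (the same shares of all genes). In the same fit without that library, 4 vacuolar ATPase genes were called lower and 0 higher, and 9 proteasome genes lower and 5 higher (4.71% and 4.4% of all genes).

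**Figure D4:**
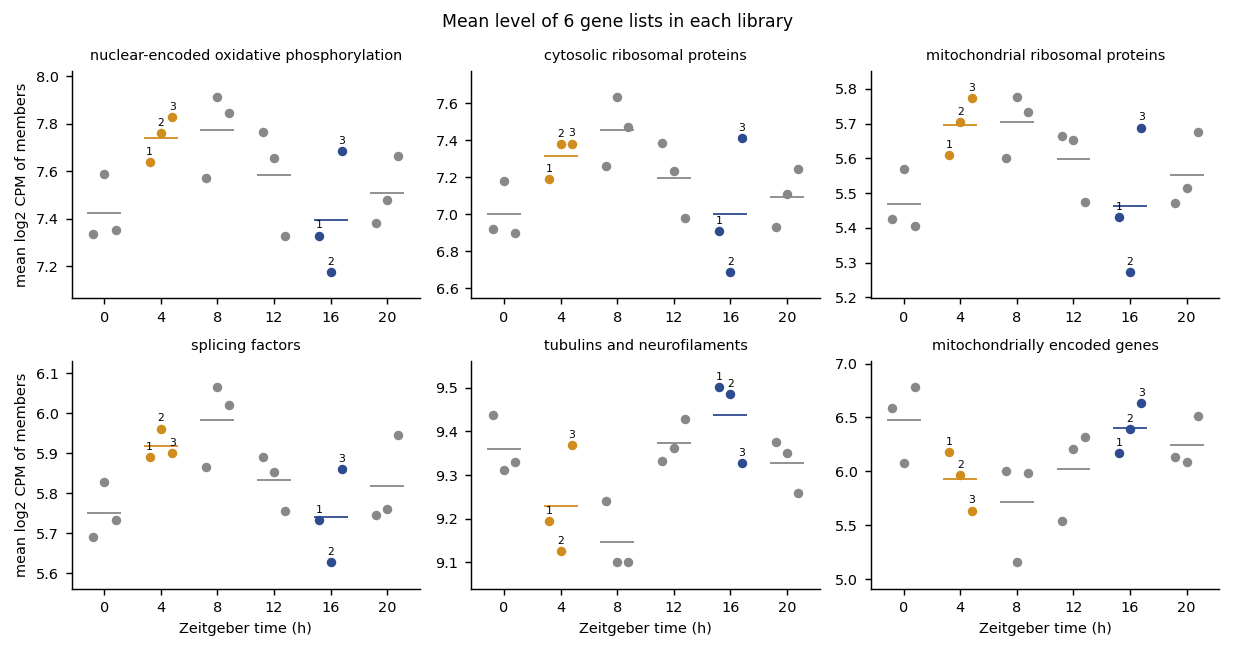
Mean log2 CPM of the members tested (vertical axis) of 6 gene lists in each library over Zeitgeber time (horizontal axis). Orange marks ZT4, blue ZT16, digits give the replicate and lines the mean of a time point. In 5 of the panels ZT16 replicate 3 lies nearer to ZT4 than the other ZT16 libraries do, and for mitochondrially encoded genes it is the highest of the 6.

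Splicing factors had a median of -0.24 over 61 genes, and Srsf5 was called. At an unadjusted p under 0.05, 24 had lower and 4 higher levels (9.8% and 10.5% of all genes). Of 11 SR protein genes (Srsf), 9 were lower by sign. Srsf1 was at 112, 104 and 89.4 CPM at ZT4 and 75.9, 72.4 and 78.3 CPM at ZT16 (adjusted p = 0.0997) and Srsf6 at 111, 102 and 102 CPM at ZT4 and 84.2, 77.7 and 90.4 CPM at ZT16 (adjusted p = 0.13), and neither group overlapped the other. Srsf11 differed the other way, at 35.8, 25.7 and 28.9 CPM at ZT4 and 38.5, 44.8 and 37.9 CPM at ZT16 (adjusted p = 0.136). The 20 Hnrnp genes had a median of -0.05. Hnrnpa1 was at 92.2, 68.7 and 80.9 CPM at ZT4 and 133, 129 and 91.9 CPM at ZT16 (adjusted p = 0.0822), whereas Hnrnph1 was at 165, 156 and 121 CPM at ZT4 and 113, 105 and 123 CPM at ZT16 (adjusted p = 0.109). Without ZT16 replicate 3, 19 splicing factors were called lower and 2 higher (4.71% and 4.4% of all genes).

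The study names 5 RNA-binding protein genes linked to amyotrophic lateral sclerosis as rhythmic over all 6 time points (JTK_Cycle), on these same libraries. None of the 5 was called between ZT16 and ZT4, which is a different measure from rhythm. At an unadjusted p under 0.05, 1 had higher and 2 lower levels (10.5% and 9.8% of all genes). Without ZT16 replicate 3, 1 was called higher and 2 lower (4.4% and 4.71% of all genes). Taf15, a member of the FET family, had the lowest p of the 5, at 63.2, 86.9 and 74.9 CPM at ZT4 and 42.2, 42.0 and 56.9 CPM at ZT16 (adjusted p = 0.0868).

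Tubulins and neurofilaments, the polymers of the axon, had a median of 0.20. At an unadjusted p under 0.05, 11 of 19 genes had higher levels and 0 lower levels (10.5% and 9.8% of all genes). Tubb5 was at 1350.0, 1131 and 1398 CPM at ZT4 and 1940.5, 1920.4 and 1582 CPM at ZT16 (adjusted p = 0.0902), Tubb4a at 1102, 997 and 1282 CPM at ZT4 and 1622, 1815 and 1379 CPM at ZT16 (adjusted p = 0.104) and the neuronal tubulin gene Tubb3 at 3736, 3518 and 4217 CPM at ZT4 and 4974, 4679 and 4297 CPM at ZT16 (adjusted p = 0.108). The groups did not overlap in any of these. Prph, the intermediate filament peripherin, was at 2691, 3018 and 3556 CPM at ZT4 and 2902, 2334 and 3128 CPM at ZT16 with overlapping groups. Without ZT16 replicate 3, 7 members were called higher and 0 lower (4.4% and 4.71% of all genes).

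Acetylcholine genes had a median of 0.37. Chat, Slc18a3, Slc5a7 and Ache are also among the cholinergic neuron markers. Chat, the enzyme that makes acetylcholine, was at 32.0, 19.4 and 25.7 CPM at ZT4 and 60.4, 84.9 and 25.8 CPM at ZT16 (log2 difference 1.16 ± 0.43 (SE), adjusted p = 0.141). Slc18a3, which loads it into vesicles, was at 492, 347 and 436 CPM at ZT4 and 779, 833 and 513 CPM at ZT16 (log2 difference 0.74 ± 0.23 (SE), adjusted p = 0.109). Slc5a7, the choline transporter, was at 280.0, 207 and 173 CPM at ZT4 and 282, 343 and 229.7 CPM at ZT16, and Ache, which breaks acetylcholine down, at 733, 578 and 688 CPM at ZT4 and 956, 1042 and 684 CPM at ZT16. In Chat, ZT16 replicate 3 lay within the ZT4 range, while replicates 1 and 2 were above every ZT4 library. Of the 7 genes tested, 5 had an unadjusted p under 0.05 with higher levels and 1, Colq, with lower levels (10.5% and 9.8% of all genes). Chat (adjusted p = 0.0265) and Slc18a3 (0.0205) were called higher without ZT16 replicate 3 (4.4% of all genes). With ZT16 replicate 1 or ZT16 replicate 2 left out instead, no gene was called.

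Potassium channel genes had 16 of 74 members with higher and 3 with lower levels at an unadjusted p under 0.05 (10.5% and 9.8% of all genes). Their median was 0.16. Besides Kcns3, Kcnc4 (Kv3.4) was at 35.0, 25.8 and 43.4 CPM at ZT4 and 84.1, 88.7 and 41.9 CPM at ZT16 (adjusted p = 0.0751) and Kcnc1 (Kv3.1) at 92.6, 87.3 and 104 CPM at ZT4 and 141, 151 and 108 CPM at ZT16 (adjusted p = 0.0875). The axonal channel gene Kcna2 (Kv1.2) was at 1047, 1226 and 1154 CPM at ZT4 and 818, 787 and 1011 CPM at ZT16 (adjusted p = 0.11), lower in all ZT16 libraries. Sodium and calcium channel genes had 8 of 31 members with higher and 2 with lower levels at an unadjusted p under 0.05 (10.5% and 9.8% of all genes). Cacna1h (T-type) was at 36.8, 27.9 and 28.9 CPM at ZT4 and 57.5, 59.2 and 38.0 CPM at ZT16 and Scn8a (Nav1.6) at 951, 1008 and 997 CPM at ZT4 and 831, 831 and 844 CPM at ZT16, with no overlap in either gene and adjusted p of 0.0997 and 0.108.

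Among neuropeptide genes, 14 of 15 were lower by sign (49.8% of all genes), 4 of them with an unadjusted p under 0.05 (9.8% of all genes). The median was -0.30. Tac1, which encodes substance P, was at 5.64, 9.13 and 7.25 CPM at ZT4 and 3.33, 2.64 and 5.38 CPM at ZT16 (adjusted p = 0.0997). Penk (enkephalin) was at 259, 369 and 369 CPM at ZT4 and 236, 212 and 285 CPM at ZT16, Cck (cholecystokinin) at 105, 133 and 142 CPM at ZT4 and 88.8, 60.4 and 106 CPM at ZT16 and Uts2 (urotensin 2) at 187, 209.9 and 215 CPM at ZT4 and 144, 129 and 208 CPM at ZT16. In these 3 genes ZT16 replicate 3 reached into the ZT4 range. Without it 4 members were called lower (4.71% of all genes) and 0 higher.

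Autophagy genes had 8 of 31 members with higher and 1 with lower levels at an unadjusted p under 0.05 (10.5% and 9.8% of all genes). Sqstm1, the cargo receptor p62, came close to the threshold at 752, 668 and 822 CPM at ZT4 and 1254, 1215 and 934 CPM at ZT16 (log2 difference 0.60 ± 0.12 (SE), adjusted p = 0.0519). Of 20 activity-induced genes, Dusp1 was at 11.2, 7.94 and 12.6 CPM at ZT4 and 26.0, 26.8 and 18.0 CPM at ZT16 (adjusted p = 0.0716) and Fos at 16.8, 18.2 and 15.3 CPM at ZT4 and 35.6, 32.8 and 22.9 CPM at ZT16 (adjusted p = 0.109), with no overlap, whereas Jund was at 203, 245 and 272 CPM at ZT4 and 185, 161 and 171 CPM at ZT16. The list median was -0.03. Among 17 chaperone and temperature-responsive genes, 5 had higher and 4 lower levels at an unadjusted p under 0.05 (10.5% and 9.8% of all genes). Hspa8 was at 4131, 3678 and 4155 CPM at ZT4 and 5159.6, 5911 and 4633 CPM at ZT16 (adjusted p = 0.0924) and Hsp90ab1 at 3430.1, 3644 and 3993 CPM at ZT4 and 3220.0, 3075 and 3285 CPM at ZT16 (adjusted p = 0.147).

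Of 11 glucocorticoid-induced genes, 2 had higher and 1 lower levels at an unadjusted p under 0.05 (10.5% and 9.8% of all genes). Zbtb16 was at 13.0, 11.5 and 12.6 CPM at ZT4 and 17.5, 18.4 and 18.2 CPM at ZT16 (adjusted p = 0.0997) and Tsc22d3 at 469.7, 518 and 501 CPM at ZT4 and 419.8, 334 and 444 CPM at ZT16 (adjusted p = 0.143). Motor neuron transcription factors had a median of -0.04 over 13 genes. Isl1 was at 14.2, 11.4 and 10.6 CPM at ZT4 and 19.6, 20.7 and 19.5 CPM at ZT16 (adjusted p = 0.0822) and Foxp1, which marks limb-innervating motor columns, at 23.7, 32.1 and 26.2 CPM at ZT4 and 16.8, 17.6 and 18.6 CPM at ZT16 (adjusted p = 0.0997). They differed in opposite directions without overlap.

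Several lists lay near all genes. Median log2 differences were 0.02 for 59 translation factors, 0.04 for 55 kinesin, dynein and dynactin genes, -0.05 for 44 synaptic vesicle genes, 0.08 for 25 glutamate receptor genes, 0.02 for 20 GABA and glycine receptor genes, -0.02 for 43 ubiquitin-specific proteases and -0.03 for 22 cholesterol genes. Grin1, the obligatory NMDA receptor subunit, was at 334, 304 and 388 CPM at ZT4 and 525, 597 and 432 CPM at ZT16 (adjusted p = 0.0929). Clustered protocadherins had a median of 0.74 over 54 genes, with values from -4.43 to 10.65. Genes of the alpha and gamma clusters share their last exons, and Pcdhga9, for example, was listed at 0 in all ZT4 libraries and in ZT16 replicate 3 and at 19.4 and 11.7 CPM in ZT16 replicates 1 and 2, so single values of these clusters are uncertain.

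**Figure D5:**
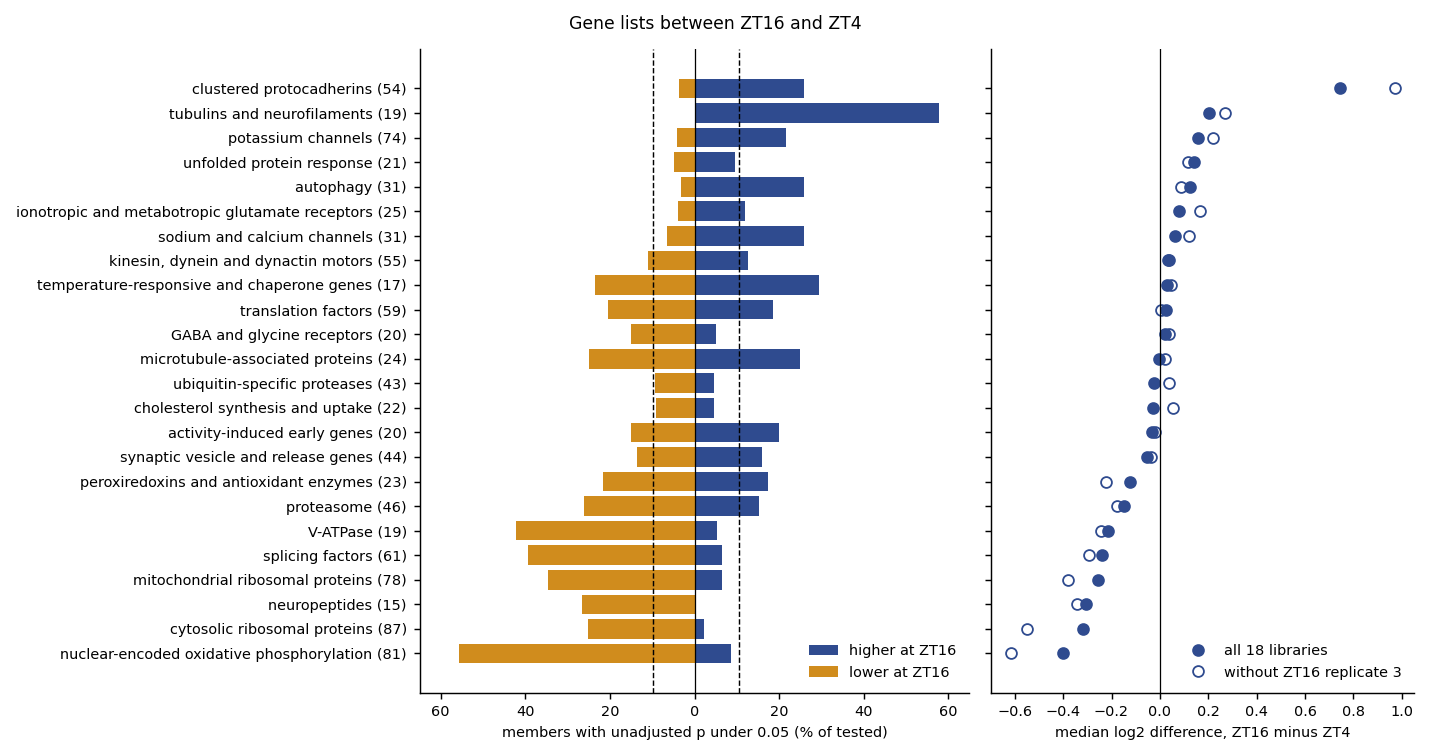
Left, share of the members tested with an unadjusted p under 0.05 (percent, horizontal axis), higher at ZT16 in blue to the right and lower in orange to the left, for lists with 15 or more members tested (number in brackets). Dashed lines give the share of all genes, 10.5% and 9.8%. Right, median log2 difference with all 18 libraries (filled) and without ZT16 replicate 3 (open). Oxidative phosphorylation has the lowest median with and without that library, and the protocadherin median rests in part on uncertain values.

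The pair was set beside the other pairs 12 h apart, which share no library with it. ZT20 against ZT8 gave the same sign in 70.8% of all genes and in 91.5% of the 3158 genes with an unadjusted p under 0.05 here. All 10 called genes but Srsf5 had the same sign there, and 8 had an unadjusted p under 0.05 there. Srsf5 differed by 0.04 between ZT20 and ZT8 on the log2 scale, against -1.07 between ZT16 and ZT4. Tested as a difference between the pairs over all genes, no gene passed (edgeR, lowest adjusted p = 0.276, that of Srsf5). An unadjusted p under 0.05 was reached by 578 genes (3.71%), DESeq2 gave 9 genes and limma voom 0.

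ZT12 against ZT0 gave the same sign in 36.3% of all genes and in 17.7% of the 3158. Of the 10 called genes, Srsf5 alone had the same sign. The difference between these pairs passed for 76 genes (0.488%), 47 of them higher at ZT16 and lower at ZT12 than at the matching time point, 28 the reverse and 1 with the same sign. The lowest p were those of Banp (1.09 against -0.72 on the log2 scale), Por (1.02 against -0.52), the heat-shock gene Hspa1b (1.03 against -1.63) and the globin gene Hba-a2 (-0.34 against 1.29). That number was 1866 without ZT16 replicate 3 and 0 without ZT16 replicate 1 or 2. All 10 called genes were among the 76, which is no separate evidence because the ZT16 minus ZT4 difference enters both tests.

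Markers of other cells were summed in the same libraries. Oligodendrocyte markers (7 of 7 detected) were at 1515 to 1854 CPM at ZT4 and 1932 to 2887 CPM at ZT16, with ZT16 replicate 3 highest and no overlap. Mbp, a myelin protein gene, was at 559, 545 and 509.7 CPM at ZT4 and 750.1, 789 and 848 CPM at ZT16 (adjusted p = 0.0543). Of the 7 oligodendrocyte markers, Mbp alone had an unadjusted p under 0.05 (edgeR), and by sign 6 were higher and 1 lower. The median log2 difference of these markers was 0.20, and 0.01 without ZT16 replicate 3. Excitatory neuron markers (3 of 3) were at 57.1 to 77.8 CPM at ZT4 and 49.2 to 53.3 CPM at ZT16. Both lists reached the smallest p that 3 against 3 libraries allow (exact permutation test, two-sided, p = 0.1, adjusted p = 0.5 over 10 lists). The ranges overlapped for the other 8 lists (cholinergic neuron, astrocyte, microglia, endothelial cell, inhibitory neuron, erythrocyte, Schwann cell and sensory neuron). The cholinergic sum is weighted by Prph, at 2334 to 3556 CPM in the 6 libraries. Of the 7 cholinergic markers, 5 had higher levels at an unadjusted p under 0.05 and 0 lower levels (10.5% and 9.8% of all genes). Their median log2 difference was 0.42, and 0.59 without ZT16 replicate 3. The part of this shift in the other differences was not tested. Erythrocyte markers were at 284 to 431 CPM at ZT4 and 208 to 387 CPM at ZT16. No marker list had a member at 0 in all 6 libraries. With the oligodendrocyte marker score as a covariate, 21 genes were called, 7 of the 10 among them. The part of oligodendrocyte RNA in the other differences was not tested.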

How the data were processed

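Ribosome-bound mRNA was measured in 18 immunoprecipitates (3 at each of 6 Zeitgeber times, every 4 h), and whole spinal cord RNA in 1 pooled input. Per the methods, stranded polyA libraries were sequenced, aligned to mm10 with STAR 2.7.5 and quantified with RSEM. The authors deposited RSEM expected counts, not normalized, of which 1.90% to 3.68% per library were not whole. The methods name an Ensembl annotation for the counts. The coordinates printed here come from RefSeq GRCm38.p6, matched by symbol, and may differ from it.

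Counts were rounded and genes with low counts removed with filterByExpr. Library sizes were scaled by TMM, and a model with 6 time point means was fitted to the 18 immunoprecipitates (edgeR 4.0.16 in R 4.3.3, quasi-likelihood test, 12 residual degrees of freedom). The contrast ZT16 minus ZT4 was adjusted by Benjamini-Hochberg over all genes tested and called under 0.05. The SE is the log2 difference divided by the square root of F. Contrasts between pairs used the same fit. The script was tested on simulated data. Alternatives were scaling, filters on low counts, DESeq2 1.42.0, voom from limma 3.58.1, covariates, the replicate block and each library left out. RSEM shares reads among similar genes, so members of gene families with near-identical copies, such as tubulins, ribosomal proteins and globins, are less certain.

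Named genes are all called genes, the genes of lowest p up to 10 in each direction with a mean of at least 5 CPM, the clock genes and the lowest-p members of each list. Atp5b, Cyc1, Ndufb10, CYTB, Srsf6, Srsf11, Hnrnph1, Tubb3, Kcnc1, Cck and Uts2 were named after their values were seen. One clock list holds a gene that is not reported here. Members and lists were chosen with earlier results of these data known.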

Additional observations from a re-analysis of the deposited data

Results flagged for a closer look

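The change from ZT4 to ZT16 differed from the change from ZT0 to ZT12 in 76 genes (edgeR quasi-likelihood test of the difference, Benjamini-Hochberg), which is why this contrast is given here. Of these, 47 were higher at ZT16 than at ZT4 and lower at ZT12 than at ZT0, and 28 the reverse. The count rests on single libraries, since it was 0 to 1866 when 1 library or 1 replicate number was left out, and 1866 without ZT16 replicate 3. All 4 erythrocyte markers (Hba-a1, Hba-a2, Hbb-bs and Hbb-bt) were among the 76 genes. Their part in the other differences was not tested.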

How the results depend on the processing

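Against 10 genes called between ZT16 and ZT4, upper-quartile scaling gave 23, a filter of at least 10 counts 73 and of at least 1 count 1469, DESeq2 808, voom with quality weights 2561, the oligodendrocyte score as covariate 21, the first principal component as covariate 0 (lowest adjusted p = 0.0520, with 859 genes at an unadjusted p under 0.05), the 6 libraries alone 3, and a length and GC correction, chosen after seeing the data, 35. A threshold of 0.1 gave 407 genes and of 0.01 gave 0. Leaving out libraries gave 0 to 1466. DESeq2 size factors and library totals gave 10 and 9.

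The replicate block gave 28 genes. Replicate numbers were not used as pairs in the main fit. Same-numbered ZT4 and ZT16 libraries deviated with correlations of 0.115, -0.198 and 0.179. Over all time points the range was -0.519 to 0.585 for the same number and -0.551 to 0.525 for other numbers. These values do not settle whether the numbers mark a pairing.

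For the difference from ZT20 minus ZT8, with 0 genes, at least 1 count gave 50, DESeq2 9, the first principal component 3, and leaving out libraries 0 to 1. For the difference from ZT12 minus ZT0, with 76 genes, at least 10 counts gave 271, at least 1 count 1767, DESeq2 1260, voom 2789, the oligodendrocyte score 609, the first principal component 1, the length and GC correction 390, the replicate block 71, and leaving out libraries 0 to 1866. The cause of these shifts was not tested.

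The ZT16 minus ZT4 difference in summed marker CPM changed sign when libraries were left out for microglia (-1.67 to 0.0399), inhibitory neuron (-9.12 to 35.2), Schwann cell (-14.0 to 6.94; 5.79 without ZT4 replicate 2) and sensory neuron markers (-1.06 to 1.90; -0.183 without ZT16 replicate 2). Of 324 alternative values of list medians, 311 moved by less than the spread between replicates and 24 changed sign. Leaving out a library shifts a group value by less than that spread almost by construction. The 311 are thus no evidence that the medians were stable. Without ZT16 replicate 3, the median went from -0.32 to -0.55 for cytosolic ribosomal proteins. For nuclear-encoded oxidative phosphorylation the median went from -0.40 to -0.62 without that library.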
